A study of Mus musculus with 4 samples.

Results

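The core pluripotency factors examined here are 10 genes, Pou5f1, Nanog, Sox2, Klf2, Klf4, Esrrb, Zfp42, Nr5a2, Sall4 and Lin28a, out of 21887 protein-coding genes of the mouse. They were chosen by name, and each was followed through the peaks at its gene ends (1 kb on each side) and through the peaks of its locus, meaning the gene and 30 kb on each side. The loci held 81 of the 66058 merged regions of the series, a merged region being a stretch in which peaks of the libraries overlapped by at least 1 bp. The peaks come from ATAC-seq, which marks open DNA by transposase insertion, in germ cells of female C57BL/6 embryos at embryonic day 15.5. All the cells, controls included, carried an Oct4-EGFP reporter and were sorted by it. The control group (genotype Control) and the group with a conditional knockout of Snf5 (genotype Snf5 CKO) had 2 libraries each. Smarcb1 encodes Snf5, which belongs to the core of the SWI/SNF chromatin remodelling complex. Values are given below in library order, which is Control 1, Control 2, Snf5 CKO 1, Snf5 CKO 2. The labels name neither the Cre driver nor the alleles, do not say how many embryos were pooled, and do not state whether the replicates are separate animals. The spread between libraries may therefore be technical.

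The pluripotency network is a set of transcription factors that hold embryonic stem cells and the early epiblast undifferentiated and that sustain one another's transcription. Oct4 (Pou5f1) and Sox2 bind DNA as partners, Nanog joins them at many enhancers, and Klf2, Klf4, Esrrb and Nr5a2 stabilise the naive state. Primordial germ cells express several of these genes, and mouse female germ cells turn them down as they enter meiosis in the fetal ovary.

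The lists held 28625 to 45422 peaks per library. Snf5 CKO 2 was the shortest list, and Snf5 CKO 1 the longest. Read depth is unknown, and the shortest peak in every list was 200 bp, so openness weaker than a library could show would leave no peak. Smarcb1 had 929 and 1139 bp of gene-end peaks in the controls and no such peak in the knockout. Of 9 germ cell markers, 8 had a gene-end peak in all 4 libraries and Tfap2c had one only in the Snf5 CKO libraries. Markers of other ovarian cells were open at some gene ends too: 6 of 9 supporting cell genes had a peak in all 4 libraries, against 2 of 7 for stroma, 1 of 5 for endothelium and 2 of 5 for blood. Over all protein-coding genes 55.0% had a gene-end peak in all 4 libraries and 0.187% in the knockout libraries alone. Amhr2, Gata4, Dcn, Pdgfra, Cdh5, Ptprc and Gata1 had no gene-end peak in any library. The outermost RefSeq start of Pdgfra, however, had a peak in some libraries but not in all. The number of open stroma markers was 5, 5, 4 and 2 in library order, and that of endothelium markers 3, 3, 2 and 1. It was 8, 8, 9 and 9 for germ cells, 7, 6, 6 and 6 for supporting cells and 2, 3, 2 and 2 for blood. The lowest counts for stroma and endothelium were in Snf5 CKO 2, the shortest list. The part of other cells in the results was not tested.

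The sequences around 5 starts are shown because their peaks separate the members: Pou5f1, Nanog, Zfp42 and the inner start of Nr5a2 lacked a peak in at least 1 library, while Klf4, chosen for contrast after its values were seen, had one in all 4. Each runs from 250 bases before the RefSeq start (build GRCm38.p6, the assembly of mm10) through its first 50 transcribed bases, 300 bases in all, on the strand of the gene. Capitals mark matches, on either strand, to any of the 7 motifs searched, which are spelled out after the sequences. The stretches are chr17:35505782-35506081 for Pou5f1 and chr6:122707239-122707538 for Nanog, both on the plus strand. They are chr8:43306960-43307259 for Zfp42, chr1:136953581-136953880 for Nr5a2 and chr4:55532426-55532725 for Klf4, all on the minus strand.
Pou5f1: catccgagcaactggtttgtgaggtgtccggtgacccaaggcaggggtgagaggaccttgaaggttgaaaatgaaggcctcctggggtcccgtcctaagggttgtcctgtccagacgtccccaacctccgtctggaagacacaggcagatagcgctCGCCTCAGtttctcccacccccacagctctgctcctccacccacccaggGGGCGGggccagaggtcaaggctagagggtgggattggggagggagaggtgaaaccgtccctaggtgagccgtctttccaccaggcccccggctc
Nanog: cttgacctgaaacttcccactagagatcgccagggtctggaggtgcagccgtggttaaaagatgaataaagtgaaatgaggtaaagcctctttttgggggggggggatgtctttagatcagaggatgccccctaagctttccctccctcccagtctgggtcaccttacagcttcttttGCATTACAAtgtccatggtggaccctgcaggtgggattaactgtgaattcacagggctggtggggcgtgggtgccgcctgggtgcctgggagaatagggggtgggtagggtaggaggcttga
Zfp42: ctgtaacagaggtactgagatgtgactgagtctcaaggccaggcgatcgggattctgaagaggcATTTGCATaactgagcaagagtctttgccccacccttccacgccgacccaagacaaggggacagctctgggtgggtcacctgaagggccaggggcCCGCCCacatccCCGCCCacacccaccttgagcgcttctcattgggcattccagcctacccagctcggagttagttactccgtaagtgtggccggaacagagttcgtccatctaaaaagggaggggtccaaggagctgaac
Nr5a2, inner start: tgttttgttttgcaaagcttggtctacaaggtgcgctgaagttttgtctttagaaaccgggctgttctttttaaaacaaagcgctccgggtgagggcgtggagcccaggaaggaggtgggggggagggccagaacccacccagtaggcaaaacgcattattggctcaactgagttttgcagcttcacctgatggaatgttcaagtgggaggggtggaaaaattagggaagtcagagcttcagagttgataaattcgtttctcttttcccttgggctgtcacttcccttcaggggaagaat
Klf4: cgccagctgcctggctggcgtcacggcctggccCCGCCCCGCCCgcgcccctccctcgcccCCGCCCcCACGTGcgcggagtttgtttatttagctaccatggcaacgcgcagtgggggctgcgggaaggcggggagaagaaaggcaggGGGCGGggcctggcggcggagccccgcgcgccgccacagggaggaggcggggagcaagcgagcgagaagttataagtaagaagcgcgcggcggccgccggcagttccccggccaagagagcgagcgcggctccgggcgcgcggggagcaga

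The motifs were the octamer ATGCAAAT, the core of the Oct-Sox composite TTGTNATGC, the Sox motif CATTGTT, the Esrrb and Nr5a2 motif TCAAGGTCA, the Klf and Sp motif GGGCGG, the E-box CACGTG and the STRA8 and MEIOSIN motif CNCCTCAG. The Nanog sequence holds an Oct-Sox core, GCATTACAA, 72 bases before the start (offset −72), a motif found in 0.705% of 21263 RefSeq promoters of protein-coding genes. The Zfp42 sequence holds an octamer, ATTTGCAT, at −186, which 1.66% of promoters hold. Pou5f1 holds CGCCTCAG, a match to the STRA8 and MEIOSIN motif (8.52% of promoters), at −94 and 1 Klf and Sp match at −45. Klf4 has 4 Klf and Sp matches, the first 2 of which overlap, and 1 E-box. The Klf and Sp motif is common, in 46.2% of promoters, and the E-box is in 7.84%. None of the 7 motifs was found in the inner Nr5a2 sequence. The Sox motif is in 3.25% of promoters and the Esrrb and Nr5a2 motif in 0.334%, and neither occurs in these exact letters in the 5 sequences shown. Variants of the 7 motifs were not searched, so a site that differs in a letter is not marked. The Zfp42 sequence, for one, holds TCAAGGCCA.

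CpG content differed among the members' starts. The sequences of Klf4, Klf2 and Sox2 held 40, 32 and 27 CpG pairs, and each was touched by a peak in all 4 libraries. The other 10 sequences in the RefSeq table, which has 2 starts each for Pou5f1, Nanog, Esrrb and Nr5a2 and none for Sall4, held between 2 and 11 CpG pairs. Of these, 2 were touched by a peak in all 4 libraries, the start of Lin28a (10 pairs) and the inner start of Esrrb (7 pairs), and 3 in no library. Among all promoters of the table the limit of 20 CpG pairs, set after these values were seen, left 92.6% of 7641 CpG-rich promoters and 27.8% of 13622 others with a peak in all 4 libraries.

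The first comparison asks whether the knockout closed or opened the members at their gene ends. No member was lost (a gene-end peak in both controls and in neither Snf5 CKO library) and none was gained (the reverse). A peak in all 4 libraries, called kept, was found at 6 members: Pou5f1, Sox2, Klf2, Klf4, Sall4 and Lin28a. Over all protein-coding genes 2.97% were lost, 0.187% gained and 55.0% kept, so 6 of 10 kept members is near the background. Nanog had gene-end peaks in Snf5 CKO 1 alone, a pattern shared by 1.21% of genes, and Zfp42 had them in every library but Snf5 CKO 2, a pattern of 2.85%. Esrrb and Nr5a2 had none in any library, like 33.6% of genes. At the outermost RefSeq start alone, 5 of the 9 members in the promoter table were kept and none was lost or gained, beside 56.3% kept, 2.48% lost and 0.177% gained among 17492 genes. With 2 libraries against 2, the smallest two-sided exact permutation p is 0.333, so no such comparison can pass 0.05. In bulk cells, fewer cells with an open site and less opening in each cell cannot be told apart.

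**Figure D1:**
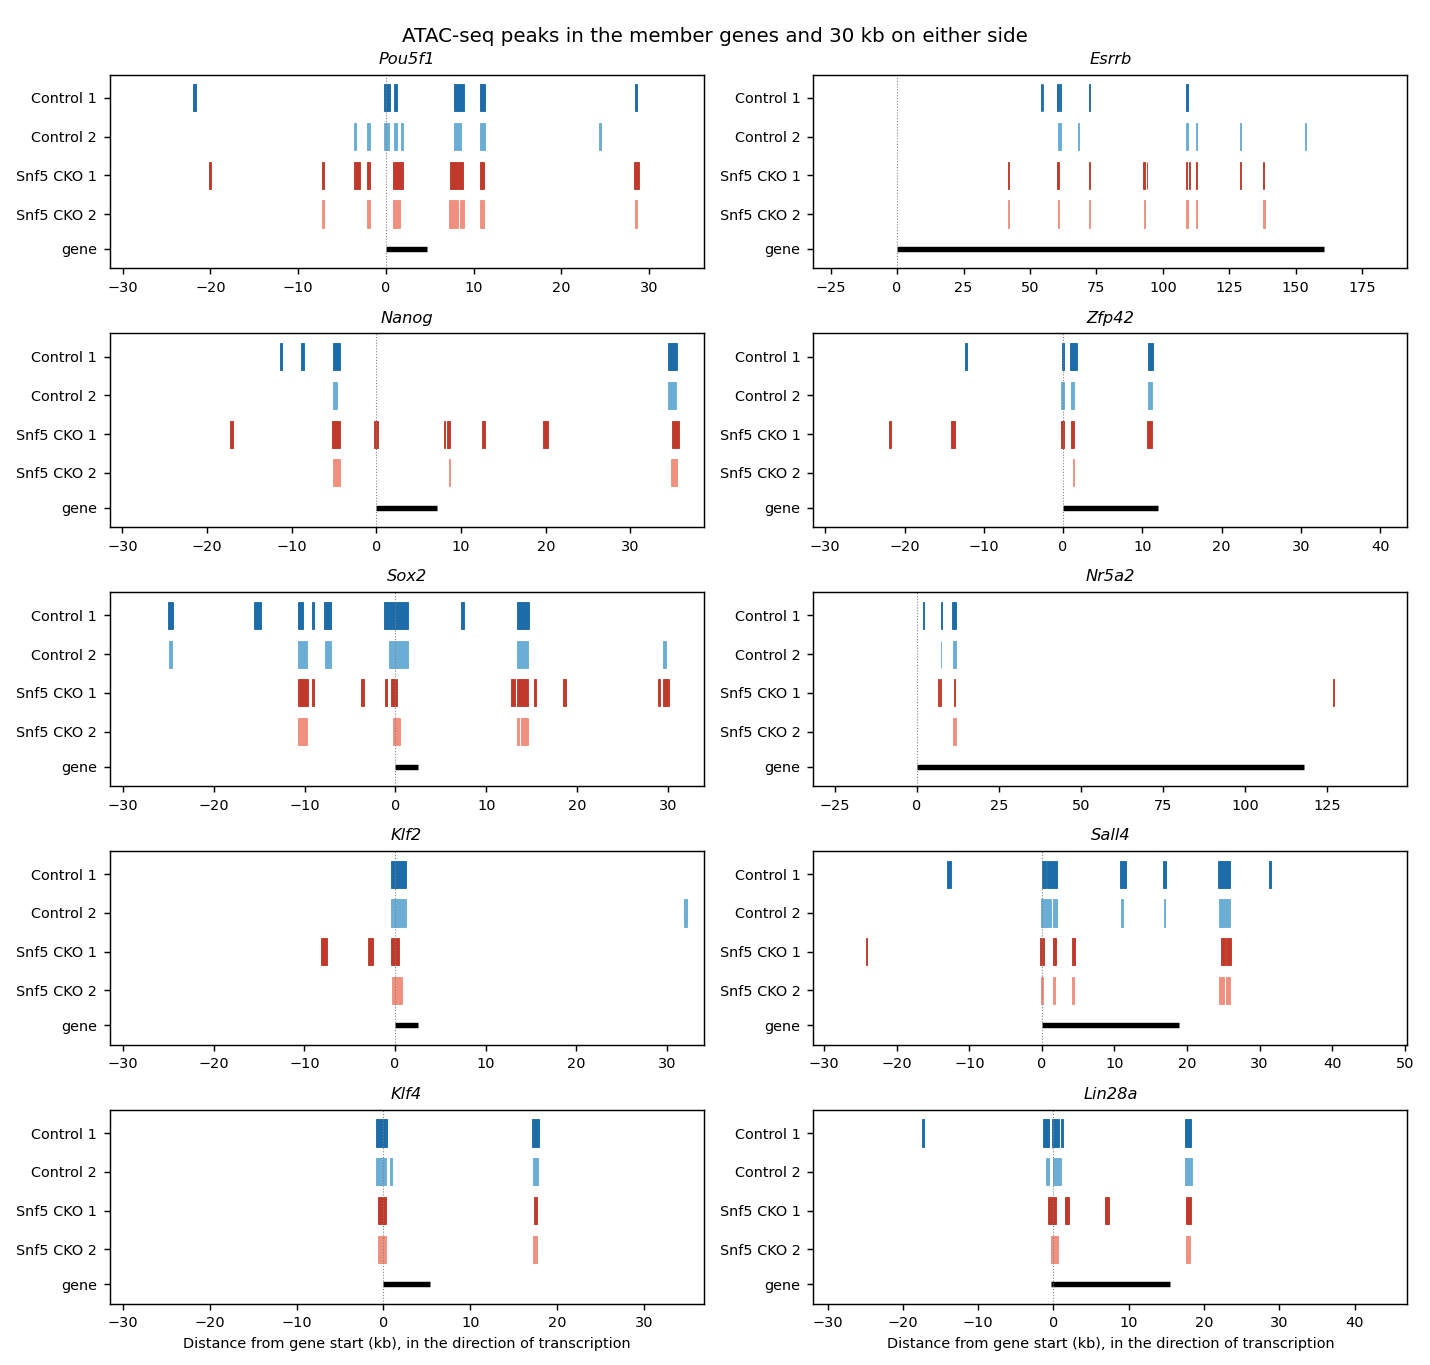
Peaks of each library (rows) at the 10 loci, as bars along the distance from the outermost RefSeq start in kb, counted in the direction of transcription (for Sall4 from its higher-coordinate end towards the lower one). The black bar is the gene, and outlines widen the peaks slightly. Pou5f1 has control peaks alone at its start, Nanog is without a start peak in 3 of the 4 libraries, and the Esrrb peaks lie inside the gene, away from its outermost start.

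Pou5f1, which encodes Oct4, the POU-domain factor without which pluripotent cells are not formed, lies on chromosome 17, 35506032 to 35510777 (gene identifier 18999). Its start lost its peak although the gene end counted as kept. The region over the start, from −258 to 519 bp (chromosome 17, 35505774 to 35506551), held peaks of 778 and 491 bp in the controls and no peak in the knockout libraries. Fold enrichment of these peaks over the local background was 2.21 and 2.02 in the authors' lists. The next region, inside the gene from 824 to 1961 bp, touched the window and was open in all libraries, with 379, 644 (over 2 peaks), 1119 and 789 bp. In this downstream region both Snf5 CKO lengths lay above both controls, while at the start both controls stood alone. With windows of 500 bp, or with 200 bp of the window required to be covered, Pou5f1 was lost.

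Upstream of Pou5f1 lay 5 regions apart from the one over the start, and they differed in the libraries that held them. In the mouse, the distal enhancer of Pou5f1, which is the enhancer used in germ cells and naive stem cells, lies a short way upstream of the proximal one. The region from −2168 to −1810 bp had no peak in Control 1 and then, in library order, peaks of 260, 359 and 289 bp. The region from −7272 to −7006 bp was gained, with 267 and 216 bp in the knockout. A region from −3657 to −2988 bp had 223 bp in Control 2 and 670 bp in Snf5 CKO 1. The 2 farthest, which began at −21958 and −20183 bp, were held by Control 1 alone with 270 bp and by Snf5 CKO 1 alone with 288 bp. Covered bases over the whole Pou5f1 locus were 3425, 3298, 5275 and 3464 bp. Both Snf5 CKO values lay above both controls, Snf5 CKO 2 by little; Pou5f1 was the 1 member of 10 for which this held.

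The Pou5f1 peaks had a low fold enrichment for their significance. Each peak was ranked by fold among the 501 peaks of its own list nearest to it in −log10 q, a measure added after the data were seen. All 23 peaks between −7272 and 11295 bp, a span of 18.6 kb, lay at or below percentile 2.4, with folds of 1.82 to 3.51. The 6 Pou5f1 peaks outside this span, whose limits were set after the values were seen, lay between percentiles 16.8 and 65.6. This held in control and Snf5 CKO lists alike. Over the whole locus the median percentile was 1.4, 0.6, 0.2 and 0.6 in library order. Over the other 9 members the median was 15.0, and 14 of their 151 peaks (9.27%) lay under percentile 2.5, against 23 of 29 (79.3%) for Pou5f1. The limit of 2.5 lies just above the highest percentile of the 23 Pou5f1 peaks, so it returns those same peaks. Under percentile 1 lay 2 of the 151 peaks and 21 of the 29. An Oct4-EGFP reporter can carry added regulatory DNA of Pou5f1, and reads from such DNA and from the gene itself could not be told apart here. The labels do not give the type of the reporter, its span or its copy number, so whether it added such DNA is unknown. The part of the reporter in the Pou5f1 results was not tested.

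**Figure D2:**
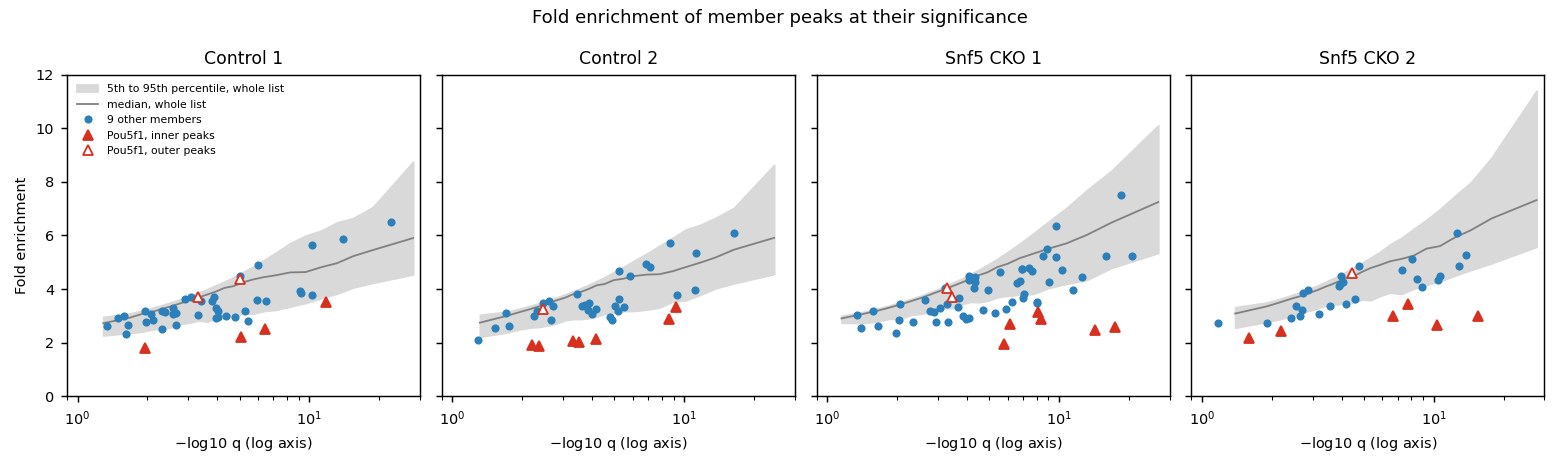
Fold enrichment against −log10 q (log axis) for the member peaks in each library. The grey band holds the 5th to 95th percentile of all peaks of that list and the line their median; filled triangles are the 23 Pou5f1 peaks of the 18.6 kb span, open triangles the 6 outside it, and dots the other 9 members. The filled triangles lie at or under the lower edge of the band in all 4 libraries, with some dots, and the open ones within it.

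Nanog, a homeodomain factor of the naive state, lies on chromosome 6, 122707489 to 122714633 (gene identifier 71950). Its start, from −307 to 134 bp, had a peak in Snf5 CKO 1 alone, of 442 bp with a fold of 3.10. The region from −5263 to −4256 bp (chromosome 6, 122702226 to 122703233), where an upstream enhancer of Nanog is known in mouse embryonic stem cells, was kept. Its length was 731, 458, 1007 and 849 bp. Both Snf5 CKO lengths were above both controls, which is the opposite order to most kept members at their gene ends. Folds there were 2.84, 3.37, 5.22 and 5.26; a fold is relative to its own library and was compared with no test.

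A second kept region of Nanog lay from 34461 to 35680 bp, past the gene, with 999, 923, 797 and 744 bp. Here the Snf5 CKO lengths were below the controls. One region was gained, from 8387 to 8744 bp, just past the gene end, with 258 and 228 bp in the knockout. With windows of 2 kb it made Nanog a gained gene. Its peak in Snf5 CKO 2 was weak, with a −log10 q of 1.17 where the lowest of that list was 1.02. The region was no longer gained where a −log10 q of at least 3 was required. Covered bases of the locus were 2344, 1381, 3919 and 1821 bp, so the groups overlapped. Of the 10 regions of the locus, 5 were held by Snf5 CKO 1 alone, the longest list.

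Sox2, the HMG-box partner of Oct4, lies on chromosome 3, 34649995 to 34652461 (gene identifier 20674). Its start region, from −1221 to 1392 bp, measured 2614 and 2056 bp in the controls, as 1 unbroken peak each. The knockout had 876 bp in 2 pieces and a single peak of 700 bp. Both Snf5 CKO values were below both controls, with means of 2335 ± 395 bp (SD, n = 2) and 788 ± 125 bp (SD, n = 2) and a log2 ratio of Snf5 CKO over control of −1.57. The difference of the means was larger than the spread within either group.

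Around Sox2, 2 regions were lost. The one from −7904 to −7116 bp (chromosome 3, 34642091 to 34642879) had 776 and 638 bp in the controls, with folds of 3.02 and 3.38. The other, from −25097 to −24482 bp, had 616 and 317 bp, with folds of 3.72 and 3.47. By contrast, the region between them, from −10726 to −9677 bp, was kept with 524 and 936 bp in the controls and 1050 and 1004 bp in the Snf5 CKO libraries. Both Snf5 CKO lengths there exceeded both controls. Downstream, a region from 13350 to 14722 bp was kept with 1342, 1230, 1301 and 1007 bp, the groups overlapping. Covered bases of the Sox2 locus were 7244, 5427, 5570 and 2711 bp, so Snf5 CKO 1 lay between the controls. Sox2 had 14 regions, as many as Esrrb, and 5 of them were held by Snf5 CKO 1 alone.

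Klf2 and Klf4 encode Krüppel-like zinc finger factors that support the naive state. Klf2 (chromosome 8, 72319062 to 72321654) had a single kept region, over its start, of 1620, 1672, 872 and 1101 bp. Both Snf5 CKO lengths were below both controls, at 986.5 ± 162 bp against 1646 ± 36.8 bp (SD, n = 2 each), a log2 ratio of −0.74. Its other 3 regions were each held by 1 library. Klf4 (chromosome 4, 55527137 to 55532475) had 2 kept regions. At its start the gene-end peaks summed to 1231 and 1383 bp in the controls and 966 and 929 bp in the Snf5 CKO libraries, a log2 ratio of −0.46. The distal one, from 17120 to 17930 bp past the start, measured 811 and 579 bp in the controls and 404 and 477 bp in the Snf5 CKO libraries. Klf4 was one of 2 members, with Sall4, whose covered bases were lower in both Snf5 CKO libraries: 2042 and 1962 bp in controls, 1370 and 1406 bp in Snf5 CKO.

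Esrrb and Nr5a2 encode orphan nuclear receptors, and neither had a peak at its gene ends. Esrrb spans 160512 bp of chromosome 12, 86361117 to 86521628, and all 14 of its regions lay inside the gene. RefSeq gives a second, inner start, and the region over it, from 60240 to 61784 bp (chromosome 12, 86421357 to 86422901), was kept. It measured 1199, 1167, 812 and 546 bp, with both Snf5 CKO lengths below both controls. Counting all RefSeq starts, an alternative added after the data were seen, Esrrb was a kept gene. A second kept region lay from 108805 to 109516 bp, with 708, 615, 373 and 522 bp.

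Esrrb, the longest locus of the set, also had 3 gained regions, more than any other member. They lay from 41728 to 41946 bp, from 92686 to 93313 bp and from 137529 to 138244 bp. Their lengths were 201 and 209 bp, 628 and 507 bp, and 624 and 577 bp in the knockout, with folds between 3.86 and 4.86. No region of Esrrb was lost. Covered bases were 2659 and 3070 bp in the controls and 4461 and 2882 bp in the Snf5 CKO libraries, so the groups overlapped.

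Nr5a2, which in the mouse is needed to keep Oct4 on in the epiblast, lies on chromosome 1, 136842562 to 136960448. Its outermost start had no peak. Directly over its inner start, shown among the sequences, lay 1 peak of 412 bp, in Snf5 CKO 1 alone. Its single kept region lay inside the gene from 10733 to 11902 bp, with 1160 and 1031 bp in the controls and 606 and 936 bp in the Snf5 CKO libraries. Both Snf5 CKO lengths were below both controls. A neighbouring region from 7191 to 7603 bp had 361, 230 and 259 bp in library order and no peak in Snf5 CKO 2. It lay within 1 kb of the inner start, so at that distance the inner start had a peak in every library but Snf5 CKO 2. No region of Nr5a2 was lost or gained.

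Zfp42 encodes Rex1, a zinc finger protein used as a marker of naive pluripotency, and lies on chromosome 8, 43295067 to 43307009. Its start region, from −275 to 107 bp, had 252 and 337 bp in the controls and 383 bp in Snf5 CKO 1. The region at its 3′ end, from 10653 to 11322 bp, had 658, 580 and 602 bp in the same libraries. Snf5 CKO 2 had neither, while Snf5 CKO 1 was within or above the control range. The single region open in all 4 libraries lay from 939 to 1756 bp, with 818, 433, 399 and 200 bp. That last peak is at the shortest length of the list, and it was the only peak of Snf5 CKO 2 in the locus. Without Snf5 CKO 2 the gene ends of Zfp42 were kept, and without Snf5 CKO 1 they were lost; with windows of 2 kb they were kept.

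Sall4, a zinc finger factor needed by embryonic stem cells and by primordial germ cells of the mouse, lies on chromosome 2, 168748332 to 168767201. The region at its higher-coordinate end (chromosome 2, 168765056 to 168767418) was kept but held much shorter peaks in the knockout. Summed peak length in it was 1817, 1988, 850 and 612 bp. Each library had it in 2 pieces. The peaks touching the 1 kb windows measured 1817, 1471, 453 and 342 bp, a log2 ratio of −2.05, the lowest of the kept members. A touching peak counts at its full length. The piece farther inside the gene touched the window in Control 1 alone, so this value depends on the window edge. The log2 ratio was −1.58 with windows of 2 kb and −1.26 with windows of 500 bp.

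Inside Sall4, 2 regions were lost and 1 was gained. Counted from the higher-coordinate end, the lost ones lay from 10730 to 11585 bp, with 856 and 311 bp in the controls, and from 16710 to 17046 bp, with 337 and 234 bp. The gained one lay from 4155 to 4607 bp, with 453 and 301 bp in the Snf5 CKO libraries. Covered bases of the locus were 5342 and 4069 bp in the controls and 2599 and 2178 bp in Snf5 CKO, a log2 ratio of −0.98. These values did not overlap between the groups.

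Lin28a encodes an RNA-binding protein that blocks maturation of let-7 microRNAs and takes part in forming primordial germ cells in the mouse. It lies on chromosome 4, 134003330 to 134019196. Its start region, from −1413 to 937 bp, had 1635 and 1504 bp in the controls, in 2 pieces each, and 1069 and 898 bp in the Snf5 CKO libraries, in 1 piece each. The groups did not overlap, with means of 1569.5 ± 92.6 bp and 983.5 ± 121 bp (SD, n = 2 each) and a log2 ratio of −0.67. Lin28a was no longer kept where each peak needed a −log10 q of 3 or more, or with lists of the same length. No region of Lin28a was lost or gained. A kept region from 17478 to 18322 bp lay at an end of Dhdds, with 801, 840, 567 and 579 bp. Its folds, 6.08 to 7.52, were in each library the highest of any member locus.

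The second comparison concerns the length of the peaks at members that stayed open. At 5 of the 6 kept members, all but Pou5f1, both Snf5 CKO lengths were below both controls, and at none were both above. Among the 12030 kept genes the shares were 77.3% and 1.27%, so this is near the background. The median log2 ratio was −0.71 over the 6 kept members, with a range from −2.05 to −0.12, and −0.41 over all kept genes. The value at the upper end is that of Pou5f1, whose groups overlapped and whose sign turned without Control 1 (0.05) or without Snf5 CKO 2 (0.11). The control lengths of Pou5f1 include its start peaks, which the Snf5 CKO libraries lack. The median length over the 6 kept members was 1627.5, 1487.5, 921 and 843.5 bp. The difference had a two-sided exact permutation p of 0.333 over the 4 libraries, the smallest p this design allows. Called peak length also varies with depth and background, which are unknown here.

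**Figure D3:**
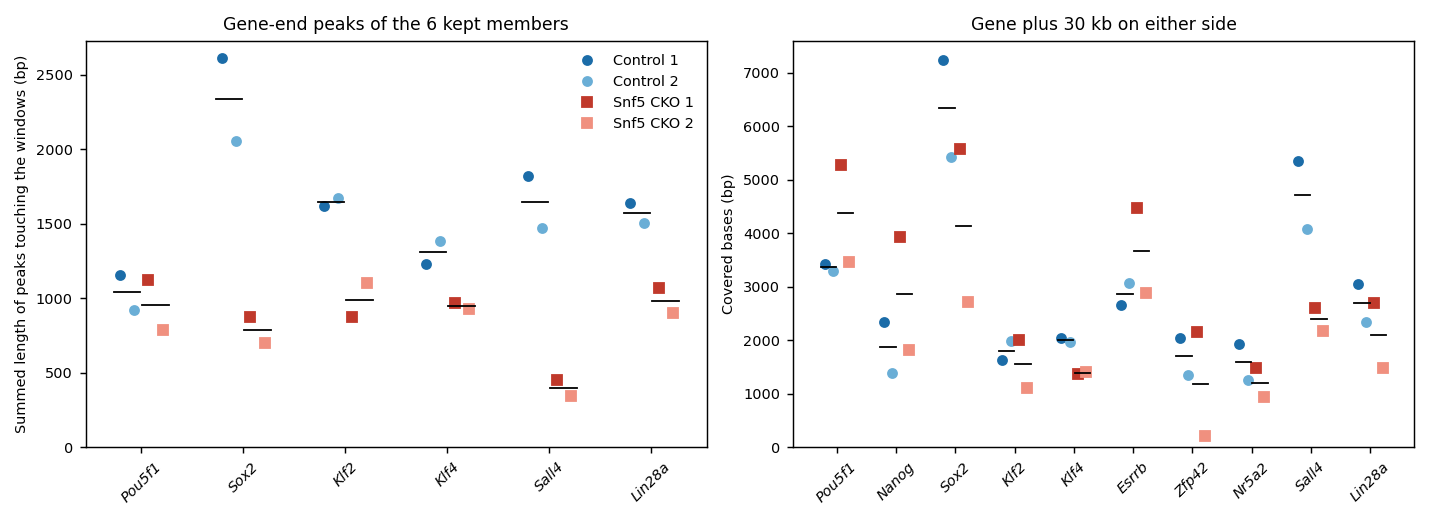
Left, summed length in bp of the peaks touching the gene-end windows of the 6 kept members; right, covered bases in bp of all 10 loci. Circles are the controls, squares the Snf5 CKO libraries, and horizontal lines group means (n = 2). At the gene ends the squares lie below the circles for all but Pou5f1, while over whole loci the groups separate only for Pou5f1 (above), Klf4 and Sall4 (below).

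Over whole loci the groups mostly overlapped. Summed over the 10 members, covered bases were 31708 and 26141 bp in the controls and 31509 and 18176 bp in the Snf5 CKO libraries. The means of 28924.5 ± 3936.5 bp and 24842.5 ± 9427.9 bp (SD, n = 2 each) differed by less than the spread within Snf5 CKO (two-sided exact permutation p = 0.667). Covered bases were lower in both Snf5 CKO libraries at 2 of the 10 members and higher in both at 1. Over 18329 loci with covered bases in both groups these shares were 64.5% and 3.87%. The median log2 ratio was −0.39 for the members and −0.48 for all these loci. The direction of the sum rested on Snf5 CKO 2: without it the log2 ratio was 0.12, against −0.22 with all libraries.

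The third comparison asks which regions of the loci were lost or gained. Of the 81 regions, 5 (6.17%) were lost, 6 (7.41%) gained and 19 (23.5%) kept. Over all merged regions 7.58% were lost, 5.08% gained and 29.4% kept, so the members were close to the background in each class. Lost regions were found at 3 members, Pou5f1, Sox2 and Sall4, and gained ones at 4, Pou5f1, Nanog, Esrrb and Sall4. Over all protein-coding genes 27.7% of loci had a lost region and 14.1% a gained one, and loci differ in length. No other protein-coding gene had an end within 1 kb of any of the 11 lost or gained regions. Every member had at least 1 kept region.

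The remaining 51 regions had peaks in other combinations of libraries. Snf5 CKO 1 alone held 22 of the 81 regions (27.2%) and Control 1 alone 13 (16.0%), beside 21.3% and 14.1% of all regions. No member region was held by Snf5 CKO 2 alone. The lost region at the Pou5f1 start and the lost one nearer to Sox2 stayed lost when a −log10 q of at least 3 was required and with lists of the same length. The gained regions of Esrrb nearest to its start, from 41728 to 41946 bp and from 92686 to 93313 bp, also stayed gained under both. With lists of the same length all 6 gained regions and 2 of the 5 lost ones kept their class, and with a −log10 q of at least 3, 2 of each did.

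**Figure D4:**
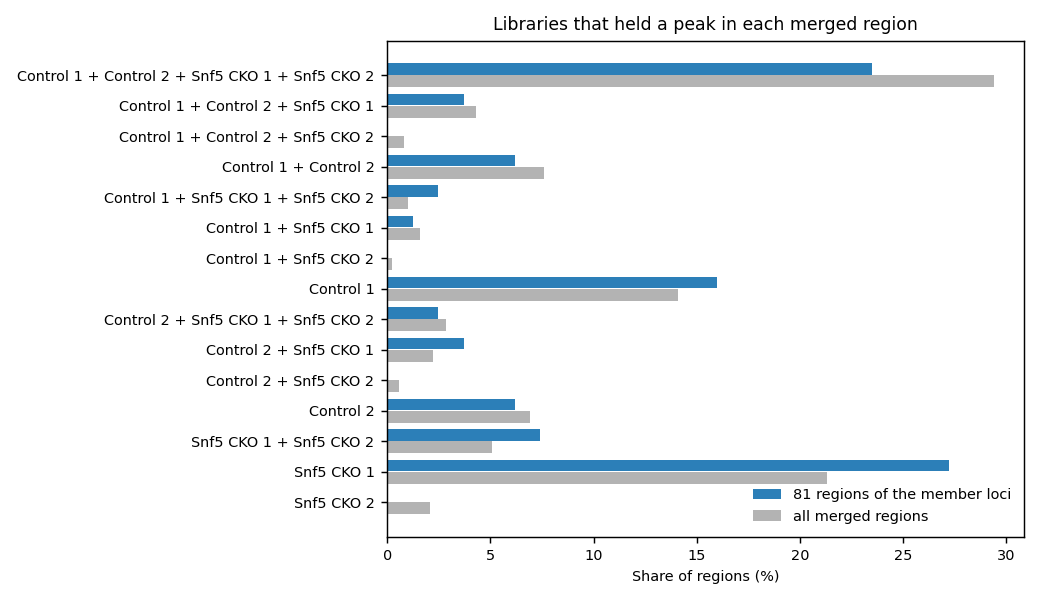
Share of regions in percent by the libraries that held a peak in them, for the 81 regions of the member loci and for all merged regions. The bars of the members follow those of all regions; the share held by Snf5 CKO 1 alone is 27.2% against 21.3%, and that held by all 4 libraries 23.5% against 29.4%.

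At gene ends the kept share of the wider pluripotency network was near that of all genes. Of 37 genes, 23 were kept, 0 were lost and 1 was gained, which was Dppa2 with 717 and 752 bp in the knockout, while 9 had peaks in other combinations and 4 in no library. Over all protein-coding genes 55.0% were kept, 2.97% lost and 0.187% gained, and 33.6% had no gene-end peak. A smaller share of the network than of all genes had no gene-end peak, and a larger share had peaks in other combinations. Its gained share rests on 1 gene. These differences were not tested. Among the 23 kept genes 16 had shorter peaks in both Snf5 CKO libraries and 2, Mycn and Dppa3, longer ones, and the median log2 ratio was −0.39. Among all kept genes 77.3% were shorter in both and 1.27% longer in both, with a median of −0.41. The network was close to these in its share shorter in both and in its median. Its share longer in both was higher, on 2 genes, and was not tested. Of 13 transcription factors of the naive state 12 were kept; Myc was the exception, with 589 and 931 bp in the controls, none in Snf5 CKO 1 and 342 bp in the other knockout library. Of 6 factors of the formative and primed states 5 were kept, and Otx2 had no peak in Snf5 CKO 2.

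The receptor and ligand genes of the network were kept in 1 of 9 cases; the share over all genes is 55.0%, and a difference from it or from the other roles was not tested. Il6st, which encodes the signalling chain of the LIF receptor, was the kept one. Fgf4, a known target of Oct4 and Sox2, had 1364 and 1212 bp in the controls, 442 bp in Snf5 CKO 1 and none in Snf5 CKO 2. Nodal, a TGF-beta family ligand, had 744, 634 and 268 bp and none in Snf5 CKO 2. Tdgf1, its co-receptor, and Lefty2, its inhibitor, had a peak in Control 1 alone, and Lif in Control 2 and Snf5 CKO 1. Lifr, Lefty1 and Bmp4 had no gene-end peak, although the outermost start of Lifr in the promoter table was open in all libraries. Among 9 chromatin and RNA factors 5 were kept, among them Tet1, with 1833 and 1870 bp in the controls and 657 and 513 bp in Snf5 CKO. Tcl1 had 825 and 824 bp in the controls, 200 bp in Snf5 CKO 1 and none in Snf5 CKO 2, Dppa4 had a peak in Control 1 alone, and Dnmt3l had none. The numbers open were 31, 29, 29 and 25 in library order, the lowest being in the library with the fewest peaks.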

How the data were processed

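ATAC-seq peak lists of 4 libraries, 2 per genotype, were used, with groups and replicate numbers from the labels. Per the submitters' processing notes, the tools were MACS2 2.2.7.1, Picard 2.25.2, SAMtools 1.10, Bowtie2 2.4.2 and Trim Galore 0.6.5, with mm10 as the build. The sources used here give neither thresholds nor the treatment of duplicates and transposase offsets. Broad peaks were deposited as 1 list per library. The authors' lists give each peak a fold enrichment over local background, a −log10 p and a −log10 q, and a deposited score that is 10 times that last value without its decimals (in all but 2 to 7 peaks of a list). No read counts were used, so depth is unknown and no interval is given.

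Genes came from the RefSeq table of GRCm38.p6 (21887 protein-coding genes), and starts, strands and promoter sequences from its promoter table, in which 9 of the 10 members were found. Regions were merged at 1 bp of overlap. Peak length at gene ends is the summed full length of peaks touching a window of 1 kb on each side of either end; covered bases are clipped to the locus. Calls need a peak in both libraries of a group and in neither of the other. Group means were compared by exact two-sided permutation (SciPy 1.17.1). The working of the call rules was checked on simulated lists. Those lists had no missed peaks and no differences in depth, so the check does not bear on such errors in the real lists. Genes were named by a fixed rule: the 10 members, Smarcb1, any gene beside a lost or gained region, and genes of the wider list that were not kept; other genes named were chosen after their values were seen. The members, lists and motifs were chosen with earlier results of these data known. Alternatives covered thresholds, list length, windows, flanks, merging, pairing and each library left out. Sequences of lost and gained regions were not used here.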

Additional observations from a re-analysis of the deposited data

How the results depend on the processing

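The calls at gene ends kept their counts within 1.5 times under stricter q, lists of the same length, the whole-region rule, starts alone and all RefSeq starts. The number of lost members was 0 and became 1 (Pou5f1) with windows of 500 bp and 1 (Pou5f1) with 200 bp covered. The number gained was 0 and became 1 (Nanog) with windows of 2 kb. Leaving out 1 library in turn gave 0 to 1 lost members, 0 to 1 gained and 6 to 7 kept. Lost regions numbered 5, against 2 with a −log10 q of at least 3, 3 with lists of the same length and 10 with a flank of 100 kb. Gained regions numbered 6, against 3 and 15 with the first and last of these, and kept regions rose from 19 to 40 with the wide flank, which by construction holds more regions. Leaving out 1 library gave 5 to 19 lost, 6 to 28 gained and 19 to 22 kept regions, since fewer libraries then have to match; the highest values came without Control 2 and without Snf5 CKO 2.

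The median log2 length ratio at kept members lay between −0.96 and −0.55 in every alternative run. With the replicate block, the mean of the ratios of same-numbered libraries, it was −0.71, and the log2 ratio of covered bases was −0.27, against −0.71 and −0.22 without it. No source says that equal numbers mark a shared animal or batch. The log2 ratio of covered bases ranged from −0.67 to 0.12 over the 4 runs that left out a library, and turned positive without Snf5 CKO 2 alone. Leaving out Pou5f1, an alternative added after the data were seen because of the reporter, gave 0 lost, 0 gained and 5 kept members, 4 lost and 5 gained regions, and a median length ratio of −0.74. For Pou5f1 itself the length ratio was −0.12, and 0.59 with a −log10 q of at least 3 or with lists of the same length. It was 0.05 without Control 1, 0.11 without Snf5 CKO 2 and 0.0 with windows of 2 kb. With windows of 1 kb the control lengths sum start and downstream peaks, and the Snf5 CKO lengths hold the downstream peak alone. Where the ratio was 0.59, the controls had only their start peaks left, so unlike sites were compared. The cause of the difference at the start was not tested. Depth limits every absence of a peak.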
